A study of Mus musculus with 19 samples.

Results

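The comparison described here asked which genes differ between CD105+ and CD105- skeletal progenitors in the same direction whatever the rest of the sorting phenotype. Its members were the 18 neonatal arrays of a series of 19, chosen by the cell population given in the labels: 9 arrays of CD105+ cells and 9 of CD105- cells. The cells came from the limbs, fore and hind, of a pooled litter of wild-type mice of postnatal day 3, and all had been sorted as CD45-Ter119-Tie2-AlphaV+. Within that gate, Thy and 6C3 defined 3 backgrounds, Thy-6C3-, Thy+6C3- and Thy-6C3+, and each background held 3 CD105- and 3 CD105+ arrays. The growth protocol calls the mice GFP-labeled although the genotype field gives wild-type, and its antibody list has CD200 but not Ter119. The remaining array, of adult Thy+6C3+CD105+ cells, entered no test. No label states that replicate arrays came from separate litters or sorts, so the p-values below measure only the spread between these arrays, which may be technical. Each population is a bulk sample, in which fewer cells of a type and less RNA per cell cannot be told apart.

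CD105 is endoglin, the product of Eng, a membrane glycoprotein that binds ligands of the TGF beta and BMP family together with their signalling receptors and is best known from endothelial cells. These ligands act through type I and type II receptor kinases and Smad transcription factors, and secreted antagonists limit their reach. In the limb skeleton CD105 is used, with Thy and 6C3, to divide integrin alpha V positive cells into stem-like and more restricted progenitors of cartilage, bone and stroma.

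Arrays carry no counts, so their number limits the precision. The medians of the 18 arrays in the deposited values ran from 5.6 to 6.02. For Thy-6C3+CD105-, the titles of replicates 2 and 3 name Thy+ in conflict with the population field, and their Thy1 levels of 5.78 and 5.95 were among those of the Thy- arrays. Thy-6C3+CD105- replicate 2 also had hybridization controls at 6.38, against 9.82 to 10.9 on the other arrays, and Thy+6C3-CD105- replicate 3 had the smallest spread of values (SD 1.91). Without the 2 arrays of conflicting titles, limma called 0 genes for a shared difference, and Cytl1 differed by 0.92 (adjusted p = 0.0536). Without the 2 arrays that stood apart it called 6 genes, Cytl1 among them at 0.88 (adjusted p = 0.0129), within a range of 0.000519 to 0.9999 over all alternatives. The spike-in poly-A controls split the arrays into 11 high and 7 low ones, with 6 and 3 CD105+ arrays, and their level did not differ past the threshold between CD105 groups (exact two-sided permutation within backgrounds, p = 0.484). The 3′ minus 5′ difference of the beta-actin controls averaged 1.12 in CD105+ and 1.31 in CD105- arrays (exact two-sided permutation, p = 0.096). For Gapdh it was 2.09 and 2.14 (exact two-sided permutation, p = 0.72). The deposited medians averaged 5.64 and 5.74 (exact two-sided permutation, p = 0.076). Thy+6C3-CD105- replicate 1 had the largest beta-actin and Gapdh differences, 1.89 and 2.77. Equal quality of the CD105 groups is not shown by these tests.

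Cytl1, which encodes a small secreted cytokine-like protein known from cartilage, was the only gene of 18193 that passed the shared test, 0.0055% of all genes, and it was higher in CD105+ cells of every background. The shared test fitted 1 CD105 term with background as a block (limma, Benjamini-Hochberg adjusted p under 0.05). No gene passed with a lower level in CD105+ cells. At an unadjusted p under 0.05 there were 590 genes higher (3.24%) and 474 lower (2.61%), and 812 of these 1064 genes (4.46% of all genes) had the same direction in all 3 backgrounds. Levels and differences below are on the log2 scale after quantile normalization, and a difference is always CD105+ minus CD105-. A CD105 step is that difference within 1 background.

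The 250 bases upstream of 3 genes are shown because Cytl1 was the called gene, Eng encodes the sorted antigen and Sfrp5 had the largest negative shared difference among the 10 genes named for one. They are from RefSeq (GRCm38.p6), 5′ to 3′ on the strand of the gene, and capitals mark CAGAC, the core of the Smad-binding element, or its reverse complement GTCTG.
Cytl1, chr5:37735269-37735518, plus strand: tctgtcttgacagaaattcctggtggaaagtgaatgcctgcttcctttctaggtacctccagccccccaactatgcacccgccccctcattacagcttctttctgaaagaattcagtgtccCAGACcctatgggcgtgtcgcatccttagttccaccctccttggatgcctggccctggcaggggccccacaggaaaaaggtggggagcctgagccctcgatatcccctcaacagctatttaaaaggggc
Eng, chr2:32646345-32646594, plus strand: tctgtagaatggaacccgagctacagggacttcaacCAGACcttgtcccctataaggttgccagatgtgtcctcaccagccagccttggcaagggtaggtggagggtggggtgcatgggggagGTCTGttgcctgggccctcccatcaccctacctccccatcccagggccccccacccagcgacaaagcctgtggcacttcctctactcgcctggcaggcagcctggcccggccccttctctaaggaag
Sfrp5, chr19:42202253-42202502, minus strand: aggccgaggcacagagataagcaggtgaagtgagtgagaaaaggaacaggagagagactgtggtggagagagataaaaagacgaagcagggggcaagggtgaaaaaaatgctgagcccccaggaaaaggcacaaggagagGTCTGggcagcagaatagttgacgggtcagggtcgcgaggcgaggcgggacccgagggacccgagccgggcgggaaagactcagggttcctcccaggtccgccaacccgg
Cytl1 and Sfrp5 hold 1 such box each and Eng holds 2, on opposite strands. The box occurs on either strand in 42.2% of 32851 RefSeq promoter windows of this length. It was found in 4 of the 8 genes with a window here among the 10 genes named below for a shared difference. These matches describe the letters of the window and nothing more.

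Cytl1 was abundant in both Thy- backgrounds and lower in Thy+6C3- cells. In Thy-6C3- cells its level was 11.3, 11.4 and 11.9 on the CD105- arrays and 12.5, 12.2 and 12.2 on the CD105+ arrays. Thy+6C3- cells had 7.99, 8.38 and 8.49 without CD105 and 9.05, 9.66 and 9.55 with it. In Thy-6C3+ cells the CD105- arrays gave 10.9, 11.1 and 11.1 and the CD105+ arrays 11.6, 11.9 and 11.4. CD105+ arrays lay above all CD105- arrays in each background, and all Thy+6C3- arrays lay below the arrays of both Thy- backgrounds. The shared difference of Cytl1 was 0.84 ± 0.12 (SE, n = 9 and 9), a 1.79-fold higher level, with a limma adjusted p of 0.0344. Its steps were 0.77 ± 0.21 (SE) in Thy-6C3-, 1.13 in Thy+6C3- and 0.61 in Thy-6C3+ cells, and they did not differ past the threshold between backgrounds (interaction test, adjusted p = 0.663). The Cytl1 difference stayed between 0.77 and 0.90 when each array was left out in turn, but the call was lost without any of 13 of the 18 arrays (adjusted p 0.0553 to 0.136). It was kept without Thy-6C3-CD105- replicate 3, Thy+6C3-CD105+ replicate 1, Thy+6C3-CD105- replicate 3, Thy-6C3+CD105+ replicate 3 or Thy-6C3+CD105- replicate 2 (0.0115 to 0.0450).

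Eng, the antigen's own gene, has 2 probe sets, and both were higher in CD105+ cells of each background. On the probe set with the lower mean, the CD105- arrays gave 5.91, 5.82 and 5.84 in Thy-6C3-, 6.19, 6.13 and 5.99 in Thy+6C3- and 6.13, 6.03 and 5.31 in Thy-6C3+ cells. The CD105+ arrays gave 7.78, 7.87 and 7.47, then 8.41, 8.05 and 7.85, then 7.68, 8.15 and 8.06 in the same order of backgrounds. All 9 CD105+ arrays lay above all 9 CD105- arrays on this probe set. Its steps were alike, at 1.85, 2.00 and 2.14, and its shared difference was 2.00 ± 0.13 (SE).
That probe set did not stand for Eng in the shared test, which took the probe set with the highest mean of each gene. When every probe set was tested on its own, this one of Eng and that of Cytl1 were the 2 called among 34945, and its limma adjusted p was 1.23e-07.
On the Eng probe set with the higher mean, Thy-6C3- cells had 7.28, 7.35 and 6.95 without CD105 and 8.39, 8.83 and 8.70 with it. Thy+6C3- cells had 7.51, 7.61 and 8.58 against 8.75, 8.38 and 8.34, and Thy-6C3+ cells had 7.22, 6.65 and 7.82 against 8.17, 8.55 and 8.76. The array Thy+6C3-CD105- replicate 3 sat at 8.58 among the CD105+ arrays here, although it read 5.99 on the other probe set, among the CD105- arrays. The shared difference was 1.10 ± 0.19 (SE, n = 9 and 9) with a limma adjusted p of 0.105, which missed the threshold, and an exact two-sided permutation of labels within backgrounds gave p = 0.00075 for this 1 gene. Without that array it was 1.23 (adjusted p = 0.00296), against 0.00296 to 0.350 over all left-out arrays.

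**Figure D1:**
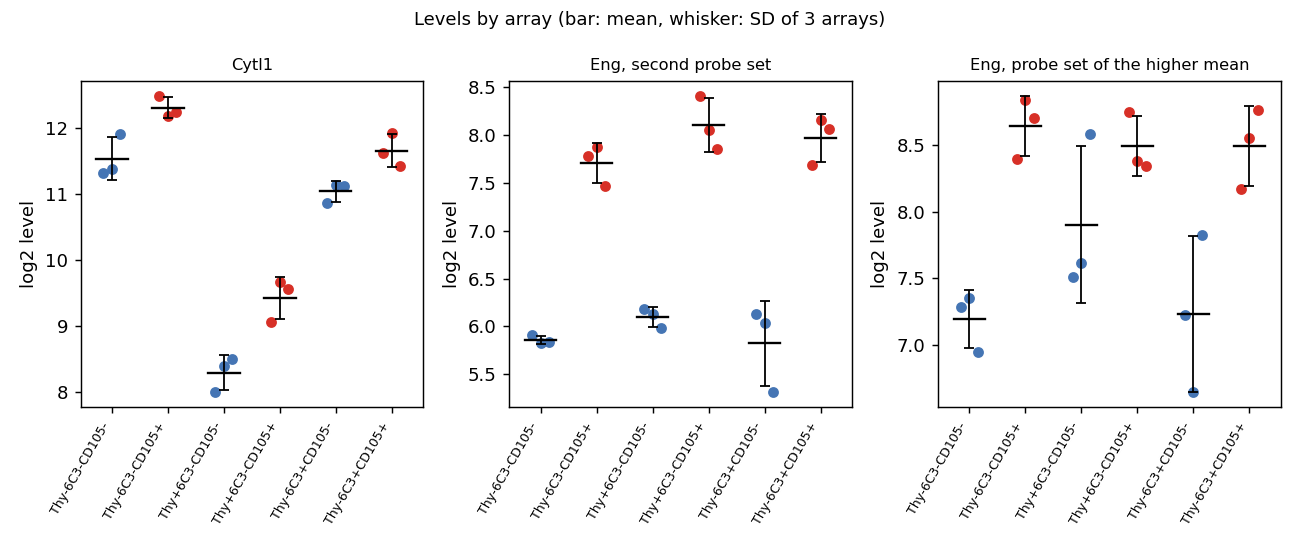
Log2 level (vertical axis) of Cytl1 and of both Eng probe sets in the 6 populations. Each point is an array, blue for CD105- and red for CD105+, with the mean and SD of 3 arrays, and the single CD105- array at 8.58 is visible on the Eng probe set of the higher mean.

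Thy1, which encodes Thy, was at 9.99 to 10.5 in both Thy+6C3- populations and at 4.96 to 5.95 in the 4 Thy- populations, so its levels went with the gate. Its shared CD105 difference was -0.036 ± 0.14 (SE, adjusted p = 0.947), and the sign turned to 0.053 with values as deposited and 0.15 with a common median only. Enpep, which encodes 6C3, was at 10.7 to 11.2 in the Thy-6C3+ arrays and at 6.20 to 8.83 in the others. The Enpep difference was 0.11 ± 0.28 (SE, adjusted p = 0.918). Cd200, a glycoprotein stained in the study, had a difference of 0.65 ± 0.22 (SE, adjusted p = 0.795) with steps of 0.43, 0.63 and 0.89, and its groups overlapped in every background.

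Beyond Cytl1 and Eng, 3 higher and 5 lower genes were taken by lowest p to describe the next members, and all of them missed the shared test. Ramp2, which encodes a partner of the calcitonin-like receptor for adrenomedullin, differed by 0.65 ± 0.13 (SE, adjusted p = 0.327) with steps of 0.54, 0.96 and 0.44 in the 3 backgrounds, here and below in the order Thy-6C3-, Thy+6C3-, Thy-6C3+. In Thy+6C3- cells its levels were 8.88, 8.68 and 8.94 without CD105 and 9.71, 9.77 and 9.90 with it. Thy-6C3- cells gave 8.69, 9.12 and 8.94 against 9.24, 9.97 and 9.14 for Ramp2, with no overlap, and Thy-6C3+ cells gave 9.90, 9.36 and 9.42 against 9.88, 9.87 and 10.2. Groups were thus apart in both 6C3- backgrounds and overlapped in 6C3+ cells.
Selenbp1, a selenium-binding methanethiol oxidase, differed by 0.64 ± 0.13 (SE, adjusted p = 0.393) with steps of 0.55, 1.004 and 0.37, and its second probe set gave 0.43. Its levels in Thy+6C3- cells were 8.12, 8.18 and 8.10 without CD105 and 8.94, 9.32 and 9.15 with it. The Selenbp1 groups overlapped in both Thy- backgrounds.
Cpne8, a copine that binds phospholipids in the presence of calcium, differed by 0.75 ± 0.16 (SE, adjusted p = 0.393) with steps of 0.31, 1.11 and 0.83. Its CD105- arrays gave 8.75, 8.89 and 8.52 in Thy-6C3-, 6.60, 6.38 and 5.29 in Thy+6C3- and 6.92, 7.06 and 7.29 in Thy-6C3+ cells. The CD105+ arrays gave 9.02, 9.10 and 8.96, then 7.19, 7.14 and 7.26, then 8.11, 7.83 and 7.82. The groups did not overlap in any background, yet the other probe sets of Cpne8 gave -0.0068 and 0.085, so the difference rests on 1 of its 3 probe sets.

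On the lower side, Sfrp5, a secreted Wnt antagonist, differed by -0.96 ± 0.19 (SE, adjusted p = 0.327) with steps of -0.85, -1.37 and -0.65. Its levels were 9.84, 9.85 and 10.5 against 8.99, 9.26 and 9.40 in Thy-6C3- cells and 7.73, 7.90 and 8.67 against 6.93, 6.72 and 6.55 in Thy+6C3- cells, CD105- first. In Thy-6C3+ cells Sfrp5 was at 7.29, 6.62 and 8.14 without CD105 and 6.62, 6.72 and 6.75 with it, the only background where its groups overlapped. The second Sfrp5 probe set gave -0.27 with steps of 0.0057, -0.72 and -0.10, so it did not have the same direction in all backgrounds.
Epyc, the cartilage proteoglycan epiphycan, differed by -0.78 ± 0.16 (SE, adjusted p = 0.327) with steps of -0.48, -1.13 and -0.75. It was at 8.19, 8.38 and 8.47 against 7.17, 7.33 and 7.16 in Thy+6C3- cells and at 6.19, 6.13 and 6.16 against 5.42, 4.91 and 5.90 in Thy-6C3+ cells. In Thy-6C3- cells, where Epyc was highest, the groups overlapped at 11.04, 11.53 and 11.95 against 11.5, 10.9 and 10.8.
Kera, the fibrous-matrix proteoglycan keratocan, differed by -0.69 ± 0.15 (SE, adjusted p = 0.393) with steps of -0.68, -0.41 and -0.99, and its groups overlapped only in Thy+6C3- cells.
Pcolce2, an enhancer of procollagen C-terminal processing, had a small difference of -0.34 ± 0.074 (SE, adjusted p = 0.393). Its steps were -0.33, -0.39 and -0.28, and the CD105+ arrays lay below the CD105- arrays in each background. Levels of Pcolce2 were 12.4, 12.5 and 12.5 against 12.2, 11.98 and 12.2 in Thy-6C3- cells, 11.4, 11.5 and 11.5 against 10.8, 11.2 and 11.1 in Thy+6C3- cells, and 11.4, 11.6 and 11.4 against 11.3, 11.1 and 11.1 in Thy-6C3+ cells.
Sbspon, a secreted protein with somatomedin B and thrombospondin type domains, differed by -0.82 ± 0.18 (SE, adjusted p = 0.393) with steps of -0.67, -0.74 and -1.06. The second Sbspon probe set gave a like -0.85.

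**Figure D2:**
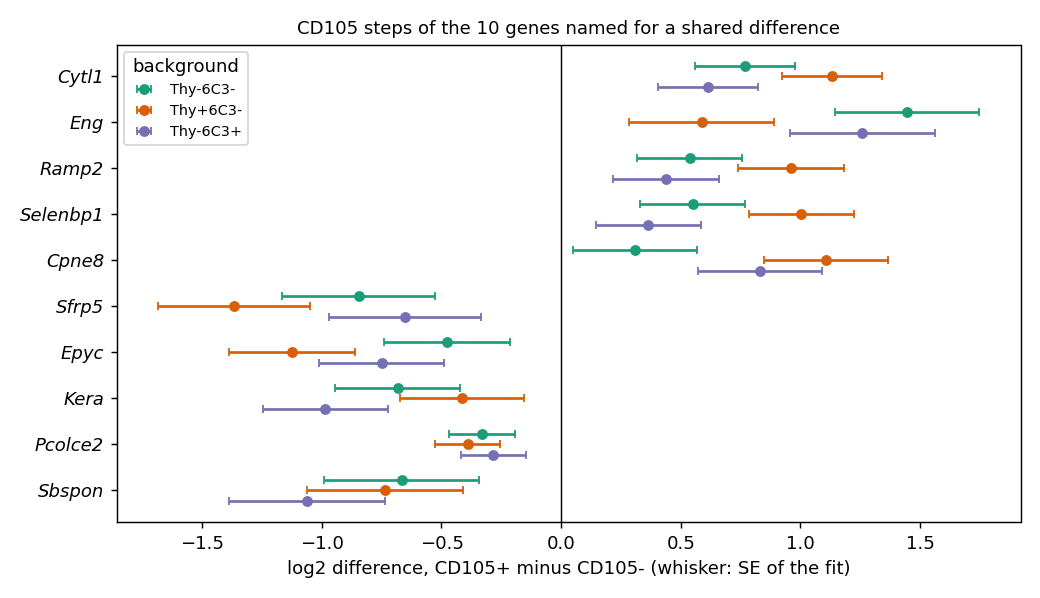
CD105 step (horizontal axis, log2 difference) of 10 genes in each of the 3 backgrounds, with whiskers for the SE of the fit with 1 mean per population. Every point of Cytl1, Eng, Ramp2, Selenbp1 and Cpne8 lies above 0 and every point of the other genes below, a sign that followed from how the genes were taken, and only Cytl1 passed the shared test.

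Same direction in all 3 backgrounds was met by 3964 of 18193 genes (21.8%), 1880 of them higher (10.3%) and 2084 lower (11.5%). With arrays set to a common median only, the split became 2515 higher and 1174 lower, and with values as deposited 1600 and 2200. The median difference of all genes moved from -0.023 to 0.060 and -0.032 under these scalings. In 10 genes (0.055%) the CD105 groups had the same direction and did not overlap in any background: Cytl1, Cpne8, Epas1, Cdca5, Mcm3, Junos and Nefm with higher (0.0385%) and Pcolce2, Ttll3 and Ica1 with lower levels (0.0165%). In 1 background at a time, the groups were apart in 6.33% of all genes in Thy-6C3-, 24.8% in Thy+6C3- and 6.21% in Thy-6C3+ cells. Cdca5, sororin, which holds sister chromatids together, had steps of 0.75, 0.46 and 0.46, and Mcm3, a subunit of the replicative helicase, 0.30, 0.39 and 0.35. Neither passed the shared test (adjusted p = 0.433 and 0.485).

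The CD105 steps differed in size between backgrounds. Across genes the SD of the step was 0.511 in Thy+6C3- cells, against 0.228 in Thy-6C3- and 0.244 in Thy-6C3+ cells, and 1052, 18 and 92 genes had a step over 1 in size. Tested one at a time, 185 genes (1.02%) passed in Thy+6C3- cells, 150 higher (0.824%) and 35 lower (0.192%), with 22.4% of genes at an unadjusted p under 0.05. In Thy-6C3- cells 1 gene (0.0055%) passed, with 1.75% at an unadjusted p under 0.05. In Thy-6C3+ cells limma called 0, with 498 genes (2.74%) at an unadjusted p under 0.05. These tests took 1 residual spread per gene, pooled over all 6 populations, so noisier populations also widened the SE of the other backgrounds. The shares of 1.75% and 2.74% were below what a threshold of 0.05 gives without any difference, so the counts do not compare backgrounds on an equal footing. The Thy+6C3- count ranged widely when an array of that background was left out: 87 and 78 without CD105+ replicates 2 and 3, and 733 and 92 without CD105- replicates 1 and 3. It was also 330 without Thy-6C3+CD105- replicate 3. Across genes, the steps of Thy-6C3- and Thy+6C3- cells correlated at -0.34 (38% with the same sign), those of Thy-6C3- and Thy-6C3+ cells at -0.17 (43.7%) and those of Thy+6C3- and Thy-6C3+ cells at 0.36 (61.9%). These values describe 18193 genes measured on the same arrays within each background and carry no test, since genes are not independent replicates. Among the 9096 genes of higher mean level they were -0.25, -0.029 and 0.27.

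**Figure D3:**
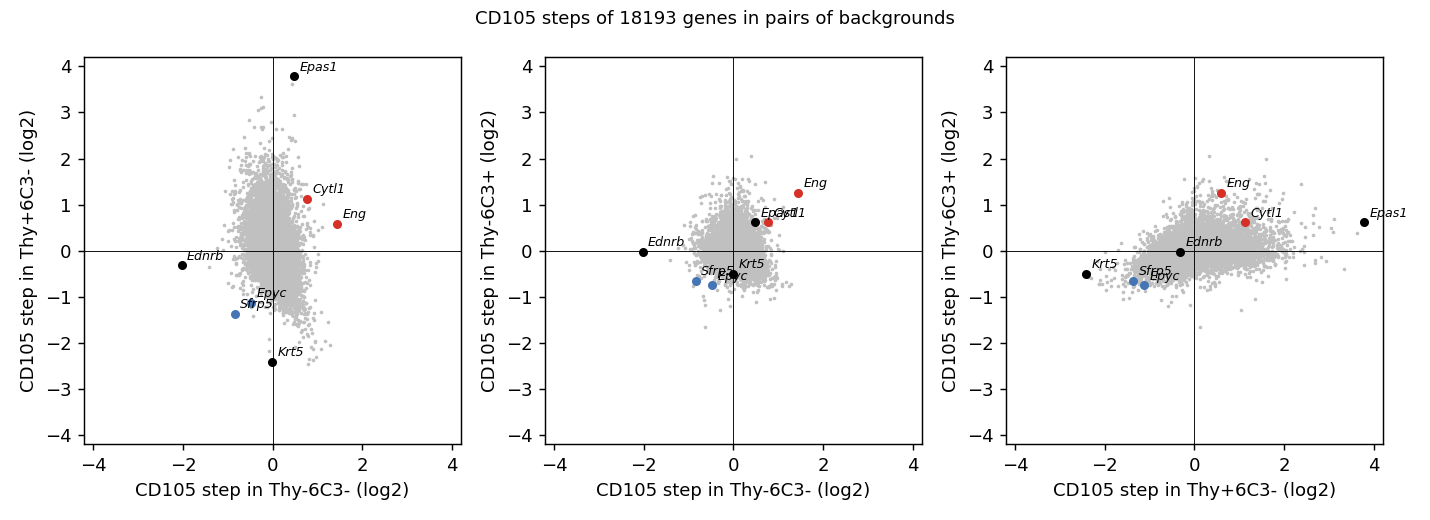
CD105 steps (log2, CD105+ minus CD105-) of 18193 genes in pairs of backgrounds, 1 grey point per gene, with named genes in red (higher), blue (lower) or black (steps that differed between backgrounds). The cloud is widest along the Thy+6C3- axis, and the pairs correlate at -0.34, -0.17 and 0.36.

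A direct test of whether the 3 steps of a gene differ called 42 genes (0.231%), of which 8 (0.044% of all genes) had the same direction in all backgrounds. At an unadjusted p under 0.05 there were 1667 genes (9.16%). For 41 of the 42 the largest step was in Thy+6C3- cells. The count fell to 27, 22 and 27 without Thy+6C3-CD105+ replicate 2, Thy+6C3-CD105+ replicate 3 and Thy-6C3+CD105+ replicate 2. Between Thy-6C3- and Thy-6C3+ cells alone, limma called 0 genes for a difference of steps, with 543 at an unadjusted p under 0.05.
Epas1, the hypoxia-inducible factor 2 alpha, was higher in CD105+ cells of each background but unequally, by 0.47, 3.79 and 0.62 (interaction test, adjusted p = 0.000145). Its CD105- level was 6.38, 6.21 and 5.43 in Thy+6C3- cells, far below the 8.71 to 9.34 of the other CD105- arrays, while its CD105+ levels were between 9.42 and 9.88 in every background. Only the CD105- level of Epas1 thus varied much between backgrounds.
Rgs5, a regulator of G protein signalling typical of pericytes, had steps of 0.44, 3.63 and 0.39 (interaction test, adjusted p = 0.000529). It was at 12.1, 12.4 and 12.2 in Thy+6C3-CD105+ cells and at 7.80 to 10.1 on all other arrays. Kcnj8, a potassium channel subunit of the same cells, had steps of 0.41, 2.40 and 0.027 (interaction test, adjusted p = 0.00195), and Notch3, a Notch receptor of mural cells, -0.33, 3.05 and 0.50 (0.0335).
The steps did not share a sign in Actg2, the enteric smooth muscle actin, at -0.22, 2.70 and -0.21, in Esam, an adhesion molecule of endothelial and other cells, at -0.018, 2.04 and -0.080, in Cadps, a priming factor of secretory vesicles, at -0.0059, 1.63 and 0.0039, or in Hey2, a Notch target, at -0.11, 1.94 and 0.10. In the interaction test their adjusted p was 0.000529, 0.000739, 0.000739 and 0.00112. On every one of these 4 genes the Thy+6C3-CD105+ arrays stood above all other arrays, from 7.38 for Actg2, 8.27 for Esam, 4.85 for Cadps and 5.28 for Hey2 upward.
In the other direction, the basal keratins Krt5 and Krt14 had steps of -0.011, -2.41 and -0.50 and of -0.075, -2.18 and -0.22 (interaction test, adjusted p = 0.00609 and 0.0270). Krt5 was at 8.31, 8.97 and 9.25 in Thy+6C3-CD105- cells and at 6.23 to 7.23 on all other arrays.
Ednrb, the endothelin receptor type B, was the only called gene with its largest step outside Thy+6C3- cells. Its level was 7.08, 6.73 and 6.67 in Thy-6C3-CD105- cells and 4.33, 4.81 and 5.25 in Thy-6C3-CD105+ cells. This step of -2.03 ± 0.26 (SE) passed the test (adjusted p = 0.00734), and those of -0.31 and -0.022 in the other backgrounds did not, with an interaction test adjusted p of 0.0326. Leaving out each array gave this step of Ednrb an adjusted p of 0.00210 to 0.113, which missed the threshold when Thy-6C3-CD105- replicate 1 (0.113) or Thy-6C3-CD105+ replicate 2 (0.0697) was the array left out. Without Thy-6C3-CD105+ replicate 1, 2 genes passed in these cells.

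**Figure D4:**
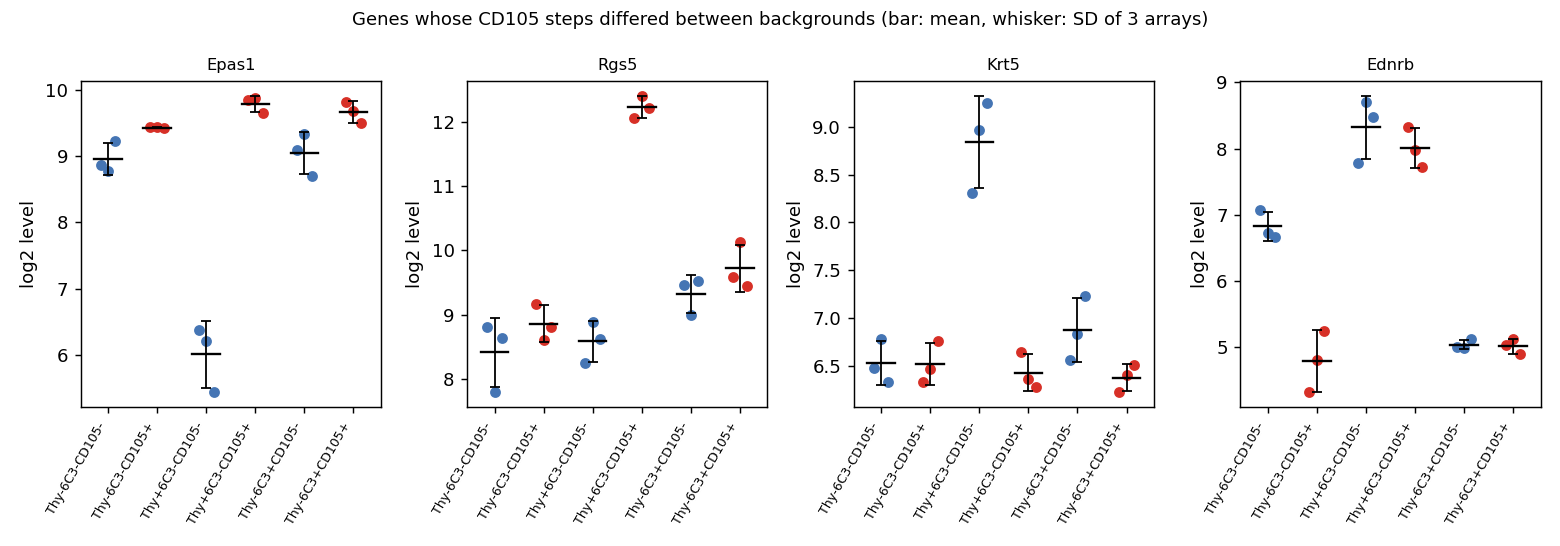
Log2 level (vertical axis) by array of Epas1, Rgs5, Krt5 and Ednrb in the 6 populations, CD105- in blue and CD105+ in red, with mean and SD of 3 arrays. Thy+6C3- cells hold the low Epas1, high Rgs5 and high Krt5 population, and Ednrb differs with CD105 in Thy-6C3- cells.

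When the spread was instead taken around 1 mean per population, so that differences between steps no longer counted as error, the average of the 3 steps passed in 33 genes (0.181%), 28 higher and 5 lower. The number was between 16 and 38 when each array was left out, at its lowest without Thy-6C3-CD105- replicate 3 or Thy+6C3-CD105+ replicate 3. Of the 33 genes 20 had the same direction in all backgrounds. Cytl1 (adjusted p = 0.00730), Eng (0.0123), Ramp2 (0.0486), Selenbp1 (0.0486), Sfrp5 (0.0441) and Epyc (0.0441) were among them, as were Epas1, Rgs5, Kcnj8 and Krt5, whose average is mostly their Thy+6C3- step. Gdf10, a TGF beta family ligand, passed this test too (average 0.51, adjusted p = 0.0150) with steps of 0.11, 0.97 and 0.44.

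In the TGF beta and BMP pathway, to which CD105 belongs, no listed gene passed the shared test. Over all genes, 10.3% were higher and 11.5% lower in all 3 backgrounds. Of 12 receptors measured 3 were higher and 2 lower in all 3 backgrounds, with a median difference of 0.048 (0.034 to 0.25 over other scalings, the mean of probe sets and the fit without the 2 arrays that stood apart), beside -0.023 over all genes (-0.032 to 0.060). Both highest medians, 0.25 and 0.060, were those with a common median only. Eng was one of the 3 higher receptors. Tgfbr3, the co-receptor betaglycan and the closest relative of endoglin, differed by 0.27 ± 0.088 (SE, adjusted p = 0.6996) with steps of 0.19, 0.33 and 0.29. Of 15 ligands 2 were higher and 3 lower in all backgrounds (median -0.065), and of 18 antagonists 2 and 2 (0.0070). The ligand median turned to 0.078 with a common median only, and the antagonist median reached 0.15 there. Fst, follistatin, which binds activins, was at 8.22, 8.22 and 7.94 in Thy+6C3-CD105- and at 10.5 on each Thy+6C3-CD105+ array, a step of 2.38 that passed the test there (adjusted p = 0.0385), and its shared difference of 1.44 ± 0.34 (SE) missed it (0.443). Of 18 Smads and Smad targets 1 was higher and 2 lower throughout (median -0.032). That median had no stable sign, at 0.061 with 0 higher and 1 lower for values as deposited, 0.15 with 0 and 0 for a common median, and 0.0039 for the mean of probe sets.

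Over the 26 lists of known genes, the cell cycle list had the largest share of members with the same direction in all backgrounds. It was 64% of the measured genes, beside 21.8% of all genes. Of 25 measured genes 16 were higher in all 3 backgrounds and 0 lower, beside 10.3% and 11.5% of all genes. An unadjusted p under 0.05 was found for 13, all higher, beside 3.24% of all genes, and 0 passed the shared limma test. The median difference was 0.32 and the medians of the steps 0.30, 0.25 and 0.38, and under the alternative scalings and array sets tried the list median was 0.27 to 0.51. Top2a, the DNA topoisomerase of dividing cells, differed by 0.35 ± 0.093 (SE, adjusted p = 0.485) with steps of 0.31, 0.32 and 0.44. Its levels were 9.58, 9.38 and 9.02 against 9.51, 9.61 and 9.81 in Thy-6C3-, 9.81, 10.001 and 10.1 against 10.3, 10.3 and 10.3 in Thy+6C3-, and 9.82, 9.66 and 9.47 against 9.95, 10.1 and 10.2 in Thy-6C3+ cells. Mcm2, a helicase subunit like Mcm3, differed by 0.45 ± 0.14 (SE, adjusted p = 0.666). The proliferation gene Mki67 was 1 of 2 members with a negative shared difference, at -0.023 ± 0.14 (SE, adjusted p = 0.967). The other was Kif23, at -0.080 ± 0.17 (SE, adjusted p = 0.901). In Thy+6C3- cells 17 of the 25 had a positive and 8 a negative step.
Of 20 immediate early genes 10 (50%) were higher and 1 (5%) lower in all backgrounds, beside 10.3% and 11.5% of all genes. Their median was 0.22, and 0.19 to 0.41 over the same alternatives. An unadjusted p under 0.05 was found for 2 of the 20, beside 5.85% of all genes. Chondrocyte genes leaned higher in the shared fit, with 16 of 24 above 0 (18 to 20 over the same alternatives), beside 7988 of all 18193 genes (7937 to 11225). Both highest counts, 20 and 11225, were those with a common median only. Throughout the backgrounds 5 (20.8%) were higher and 1 (4.17%) lower, and the median was 0.15 (0.12 to 0.35). Their step medians were -0.096, 0.19 and 0.28, so the lean was absent in Thy-6C3- cells. Col2a1, the main collagen of cartilage, differed by 0.077 ± 0.11 (SE, adjusted p = 0.846). The 11 hypertrophy and mineralization genes had step medians of -0.49, 0.36 and 0.11 and a shared median of -0.011, which turned to 0.010 with values as deposited and 0.10 with a common median. Of these 11 genes 1 (9.09%) was higher and 1 (9.09%) lower in all backgrounds, beside 10.3% and 11.5% of all genes. The lower one was Col10a1, the collagen of hypertrophic cartilage, with steps of -0.99, -0.70 and -0.43 (shared -0.70 ± 0.16 SE, adjusted p = 0.393). The higher one was Ibsp, with steps of 0.61, 1.35 and 1.14 (shared 1.03 ± 0.46 SE, adjusted p = 0.795). Osteoblast genes had 2 of 14 higher and 1 lower throughout, but 1 and 4 with values as deposited or without the 2 arrays that stood apart. Tendon and fibrous matrix genes had 4 higher and 5 lower of 19, but 4 and 2 with values as deposited, 4 and 1 with a common median and 2 and 7 without the 2 arrays.
All 13 haematopoietic niche genes had a positive shared difference (median 0.36), but 4 of them (30.8%, beside 10.3% of all genes) were positive in each background, and the median step was -0.081 in Thy-6C3- cells. With the mean of all probe sets 11 of the 13 were positive (median 0.18), and without the 2 arrays that stood apart 12 (median 0.28). Angpt1, a ligand of Tie2, differed by 0.66 ± 0.19 (SE, adjusted p = 0.580) with steps of 0.26, 0.68 and 1.03. The Hedgehog antagonist Hhip had nearly equal steps of 0.65, 0.59 and 0.60 (adjusted p of the shared test 0.484).

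**Figure D5:**
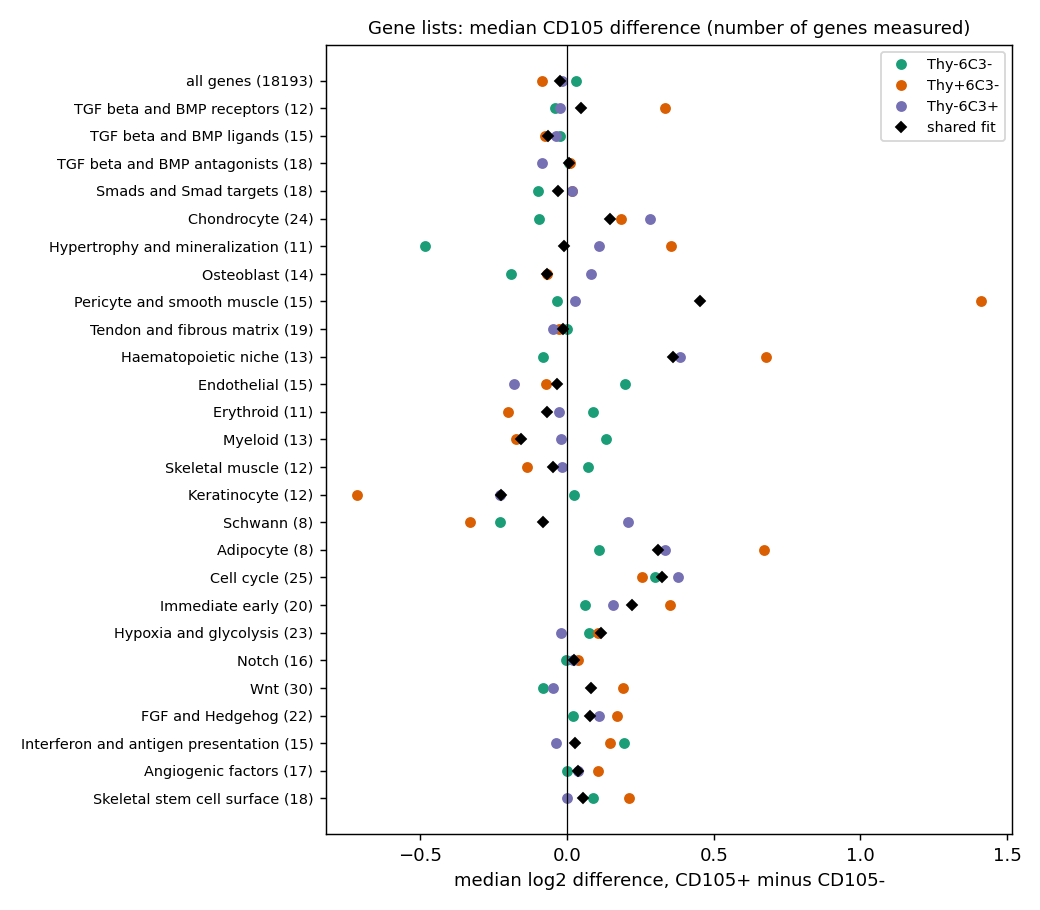
Median CD105 difference (horizontal axis, log2) of all genes and of 26 gene lists, with the number of genes measured in brackets, for each background (coloured points) and the shared fit (black diamonds). The cell cycle medians lie together at 0.25 to 0.38, whereas the pericyte and smooth muscle median is 1.41 in Thy+6C3- cells and near 0 in the others.

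Markers of other cells were measured in the same arrays. By their means over the 18 arrays, the 7 endothelial markers, of which Tek encodes Tie2, all lay below the median gene mean of 6.76. All measured erythroid and skeletal muscle markers, and 5 of 7 myeloid ones, were also below that level. The mean level of the 7 endothelial markers ranged from 5.08 to 5.85 in CD105+ and from 5.12 to 5.68 in CD105- arrays. Of these 7, Esam reached 8.35 in Thy+6C3-CD105+ cells, and its step of 2.04 there passed the limma test (adjusted p = 8.07e-06). The mean level of the 7 myeloid markers ranged from 5.37 to 5.89 in CD105+ and from 5.31 to 6.47 in CD105- arrays. In Thy+6C3- cells it was 6.20, 5.91 and 6.47 without CD105 and 5.77, 5.46 and 5.42 with it, with no overlap. Of these markers Laptm5, a lysosomal membrane protein of blood cells, passed the test in that step, at -2.36 (adjusted p = 0.0135). Itgav, which encodes the integrin of the gate, had population means of 10.5 to 11.1. The mean level of 8 pericyte and smooth muscle markers ranged from 8.37 to 10.7 in CD105+ and from 8.39 to 9.23 in CD105- arrays, and all 15 genes of the longer list had a positive Thy+6C3- step, of which 7 passed the test, beside 0.824% of all genes called higher there. The mean level of 6 keratinocyte markers ranged from 5.41 to 5.83 in CD105+ and from 5.602 to 7.54 in CD105- arrays. Within the longer keratinocyte list, 11 of 12 genes had a negative Thy+6C3- step, of which 3 passed the test, beside 0.192% of all genes called lower there. In all 3 backgrounds 5 of the 12 (41.7%) were lower, beside 11.5% of all genes, and 10 of the 12 lay below the median gene mean. Of the 5, Perp had steps of -0.72, -0.81 and -0.59 (shared -0.71 ± 0.21 SE, adjusted p = 0.637). Krt10 alone was higher throughout, with steps of 0.22, 0.26 and 0.26. Of 5 adipocyte markers 4 were higher in all backgrounds, beside 10.3% of all genes, but 4 of the 5 lay below the median gene mean. Their mean level was 5.56 to 6.91 in CD105+ and 5.51 to 6.21 in CD105- arrays. Lpl, lipoprotein lipase, differed by 0.53 ± 0.16 (SE, adjusted p = 0.666). In the longer list of 8 genes 6 had a positive and 2 a negative shared difference, the latter Lep (-0.11) and Retn (-0.18). The part of these cells in the differences above was not tested.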

How the data were processed

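RNA of sorted cells was amplified in 2 rounds and measured on Affymetrix mouse genome arrays, scanned with GCOS 1.1.1, per the labels' protocols. The deposited table holds log2 levels of 45101 probe sets on 19 arrays (2.55 to 14.6). The step from the scans to these levels is, for the authors' part, not given in the sources used here. After the 64 controls were left out, 34945 probe sets had 1 gene symbol, 932 several and 9160 none. Because medians differed by over 0.1, the 19 arrays were quantile normalized together, which evens out any overall difference between populations. Each of 18193 genes was represented by its probe set with the highest mean on the 18 neonatal arrays, and no filter on low levels was used.

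Arrays were grouped by the population field. The shared test was limma 3.58.1 (R 4.3.3; lmFit, then eBayes with a trend) with background as a block and 1 CD105 term (14 residual degrees of freedom), two-sided, called at a Benjamini-Hochberg adjusted p under 0.05 over all genes. A fit with 1 mean per population (12 residual degrees of freedom) gave the steps, their average and the interaction F-test. Exact permutations used all 8000 relabellings of CD105 within backgrounds, with a smallest possible p of 0.00025.

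Named genes were called genes of the same direction in all backgrounds, filled to 5 per direction by lowest p of the shared fit, plus the sorted antigens and the 4 genes of lowest interaction p whose steps differ in sign. Other genes in the text were chosen after their values were seen. The members, tests and lists were chosen with earlier results of these data known. Of 437 list entries 406 were measured, and lists are described without a test. Promoters came from RefSeq. The fits were tested on simulated arrays. Alternatives changed the scaling, genes, probe sets, variance model, blocks and arrays. Figures were drawn with matplotlib 3.10.9 and pandas 2.3.3 in Python 3.11.15.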

Additional observations from a re-analysis of the deposited data

Results flagged for a closer look

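The CD105 steps differed between the 3 backgrounds in 42 genes by the interaction test (limma F-test, Benjamini-Hochberg over 18193 genes). Among the genes named, the adjusted p of that difference was 0.000145 for Epas1, 0.000529 for Actg2 and Rgs5, 0.000739 for Esam and Cadps, 0.00112 for Hey2, 0.00195 for Kcnj8 and 0.00609 for Krt5. It was 0.0270 for Krt14, 0.0326 for Ednrb and 0.0335 for Notch3.

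In 3 of 78 groups of 9 arrays tested, 1 array lay far from the others once the background means had been removed. Chance picks out about 1 in 20 groups whose values share 1 spread. The means were taken over both CD105 groups, so unequal steps, such as those of Krt14, stayed in the values. That rate therefore cannot be applied to these groups as it stands. Cpne8 was lowest on Thy+6C3-CD105- replicate 3, at 5.29. Epyc was lowest on Thy-6C3-CD105- replicate 1, at 11.04, and Krt14 highest on Thy+6C3-CD105- replicate 2, at 7.71.

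The adult Thy+6C3+CD105+ array, which entered no comparison and whose source field names sternum and ear, lay above the highest neonatal CD105- array for Eng and Cytl1. Its Eng levels were 8.90 and 7.59 on the 2 probe sets, against 8.58 and 6.19. Cytl1 was at 13.5 there, against 11.9. The highest neonatal CD105+ arrays were at 8.83 and 8.41 on the Eng probe sets and at 12.5 for Cytl1. The adult array thus also lay above the neonatal CD105+ arrays for Cytl1 and, slightly, on 1 Eng probe set.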

How the results depend on the processing

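The number of genes called for a shared difference was small under every alternative that kept background as a block, and moved between 0 and 7. It was 3 with values as deposited or with the poly-A control set as a block, 2 with a common median only, 4 with the mean of all probe sets of a gene and 7 with array weights. It was 2 genes when every probe set was tested on its own and 6 without the 2 arrays that stood apart, both added after seeing the data. It was 0 with eBayes without a trend, without the 2 arrays of conflicting titles, on 6 population means, without any of the 3 backgrounds, and on high or low poly-A arrays alone. Leaving out each array gave 0 to 3, and the average of the steps gave 33. Of the 38 alternatives, 16 called Cytl1, and its sign was positive in all of them. The 42 interaction calls became 9 among the 9096 genes of higher level, 146 with array weights, 22 to 60 with each array left out, and 0 for the difference between the steps of the Thy- backgrounds alone, also added later.

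Eng missed the test at 1.10 but passed with values as deposited (1.20), a common median (1.29), the mean of its probe sets (1.55), array weights (1.11), the average of steps (1.10), without the 2 arrays that stood apart (1.14) and on its other probe set (2.00). Each array left out gave 1.003 to 1.23.

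Thy1 turned from -0.036 to 0.053 with values as deposited, 0.15 with a common median, 0.040 without the arrays of conflicting titles, 0.10 without Thy-6C3+ arrays, and -0.11 to 0.028 with each array left out. Enpep turned from 0.11 to -0.25 without Thy+6C3- arrays, -0.099 on low poly-A arrays, -0.084 without the 2 arrays that stood apart, and -0.13 to 0.26 with each array left out, the lowest without Thy+6C3-CD105- replicate 3. Without Thy+6C3- arrays the shared differences of Actg2, Esam, Cadps and Hey2 became -0.21, -0.049, -0.00101 and -0.00254. The cause was not tested.

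Replicate numbers paired the arrays in part at most: deviations of same-numbered arrays correlated over 0.1 in 4 of 9 pairs (range -0.27 to 0.62). These were replicates 1 and 2 of Thy-6C3- (0.30 and 0.62) and of Thy+6C3- cells (0.29 and 0.38). The same 4 pairs correlated best with their own number, against at most 0.19, -0.10, 0.038 and -0.13 with another. The other pairs did not. With the replicate number as a block 1 gene was called. With a block for each of the 9 pairs limma called 0, and Cytl1 had an adjusted p of 0.107.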

Other observations

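With the background means removed, the gene whose level followed that of Cytl1 most closely over the 18 arrays was Lgals9, which encodes galectin-9, with r = 0.87. Its levels were 5.82, 5.72 and 6.08 against 6.63, 6.22 and 6.26 in Thy-6C3- cells, 6.02, 6.98 and 6.78 against 7.49, 8.11 and 8.27 in Thy+6C3- cells and 6.93, 7.11 and 6.23 against 6.97, 7.20 and 7.01 in Thy-6C3+ cells, CD105- first. Its step passed the test in Thy+6C3- cells (1.36, limma adjusted p = 0.0235), and its shared difference of 0.72 ± 0.19 (SE) did not (0.485). Selenbp1 and Sparcl1 came next, with r = 0.82 and 0.81. These correlations describe arrays that share the CD105 grouping and carry no test.
Matn1, the cartilage matrix protein matrilin 1, was at 11.3 to 11.7 in all Thy-6C3- arrays, with a step of -0.083. In Thy+6C3- cells it was at 5.84, 6.66 and 5.89 without CD105 and 7.60, 8.39 and 8.24 with it, a step of 1.95 that passed the test (adjusted p = 0.00542). In Thy-6C3+ cells it was at 4.51, 4.39 and 4.48 against 6.50, 4.74 and 5.52, a step of 1.13 that did not (adjusted p at its ceiling of 1). The 3 steps of Matn1 did not differ past the threshold (interaction test, adjusted p = 0.253). Prg4, the joint lubricant lubricin, had steps of 0.32, 0.56 and 0.79 and overlapping groups in each background (shared difference 0.56 ± 0.18 SE, adjusted p = 0.6996).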
